A study of Mus musculus with 6 samples.

Results

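The genes described here mark the walls of blood vessels: 39 genes of endothelial cells, vascular smooth muscle cells and pericytes, among 18193 genes that could be tested. They were taken from a fixed list of gene names and read from the probe set with the highest mean over all arrays, and each of the 39 had at least 1 probe set. The list was divided into 12 pan-endothelial genes, 7 capillary genes, 4 genes of larger vessels, 3 endocardial genes, 2 VEGF ligands, 5 smooth muscle genes and 6 pericyte genes. The RNA came from the apex of the ventricles in a study of mice transgenic for PR-M, a human progesterone receptor found in mitochondria. One group of 3 samples is named PR-M expressing and the other group of 3 is named PR-M non-expressing. Mice of both groups had progesterone, 2.5 mg in oil under the skin, for 19 to 21 days, so no sample shows the tissue without the hormone. The labels name neither the promoter of the transgene nor the strain, sex or age of the animals. They do not say whether the non-expressing mice carry the transgene, how expression was established, or whether each sample was a separate animal. The p-values therefore measure the spread between these samples, which may be technical. Ventricular muscle markers were bright on all 6 arrays. Of 7 atrial muscle markers, which a ventricular apex is not expected to hold at high level, 3 passed the test as higher on the expressing arrays (0.0330% of all genes). The rest of the 7 did not pass, and the 3 calls were lost in several alternatives given below.

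Endothelial cells line every vessel, and those of capillaries, arteries, veins and the endocardium (the lining of the heart chambers) carry partly different genes. VEGF proteins act on the endothelial receptors encoded by Kdr and Flt1, angiopoietins on Tek, apelin on Aplnr, and Notch ligands such as Dll4 on Notch receptors of neighbouring cells. Mural cells lie outside the endothelium: pericytes along capillaries, and contractile smooth muscle around arteries and veins. In bulk tissue, fewer cells of a type and less RNA per cell cannot be told apart.

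No vascular gene passed the test between the groups. Of the 39 genes, 0 had a limma adjusted p under 0.05, against 12 of all 18193 genes (0.0660%), 6 of them higher (0.0330%) and 6 lower (0.0330%). At an unadjusted p under 0.05 there were 6 of 39 (15.4%), beside 11.4% of all genes: Apln, Vegfb, Pecam1, Emcn and Vwf with positive differences (4.85% of all genes) and Flt1 with a negative one (6.56% of all genes). The 3 expressing and 3 non-expressing values did not overlap for 8 of 39 genes (20.5%), 6 higher and 2 lower, beside 19.0% of all genes, 8.16% higher and 10.8% lower. The total shares lie near those of all genes. On the higher side, 5 and 6 of 39 are larger shares than 4.85% and 8.16%, and on the lower side 1 and 2 of 39 are smaller than 6.56% and 10.8%. This split was not tested. The 3 expressing arrays share 1 title prefix that no non-expressing array has. Non-expressing replicate 1 has another prefix to itself, and non-expressing replicates 2 and 3 share a further one. The labels do not say what the prefixes mark. If they mark batches, batch and group cannot be told apart. The median difference, expressing minus non-expressing on the log2 scale, was 0.01 over the vascular genes and -0.02 over all genes, and the median size of the difference was 0.08 and 0.09.

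The differences were small. They were under 0.1 on the log2 scale in size for 22 genes and under 0.25 for 33, and only Vwf and Tagln differed by more than 0.5. For 31 of the 39 genes the 95% interval of the difference lay within 0.5 on either side of zero. The interval reached from 0.17 to 0.56 on either side of the estimate, so with 3 arrays in each group smaller differences than that could not be told from zero, even before adjustment.

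**Figure D1:**
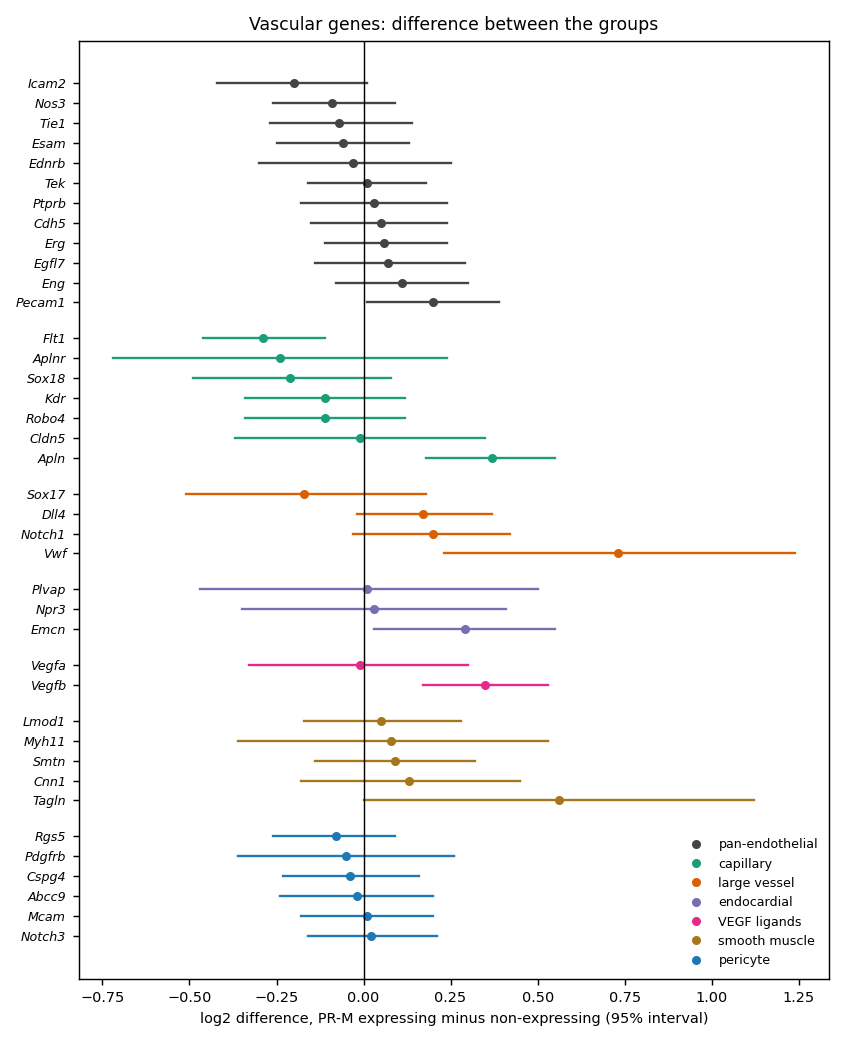
The log2 difference of each of the 39 vascular genes, PR-M expressing minus PR-M non-expressing, with its 95% interval from limma on the horizontal axis and the genes in 7 subgroups (colours) on the vertical axis. Most points lie within 0.25 of zero, Vwf (0.73) and Tagln (0.56) lie farthest out, and no gene passed after adjustment over 18193 genes.

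Among the ligands and receptors of the VEGF family, Vegfb had a positive difference and its receptor gene Flt1 a negative one. Vegfb encodes a growth factor that binds the receptor FLT1 and is made largely by heart muscle. Its log2 values were 11.36, 11.28 and 11.36 on the 3 expressing arrays and 11.08, 10.96 and 10.91 on the 3 non-expressing arrays. All expressing values lay above all non-expressing values, with a log2 difference of 0.35 (SE 0.08, 95% interval 0.17 to 0.53, adjusted p 0.208), a 1.28-fold difference that did not pass. Flt1 encodes a VEGF receptor that also acts as a trap for the ligand. Its values were 9.62, 9.53 and 9.69 on the expressing arrays and 9.89, 9.92 and 9.90 on the non-expressing arrays, again without overlap. The difference was -0.29 (SE 0.08, 95% interval -0.46 to -0.11, adjusted p 0.282). Vegfa, the main growth factor for new vessels, had overlapping groups and a difference of -0.01 (95% interval -0.33 to 0.30). Kdr, the main signalling receptor for VEGF-A, differed by -0.11 (95% interval -0.34 to 0.12).

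Apln had the lowest p of the vascular genes. It encodes apelin, a peptide of growing and capillary endothelium that acts on the receptor encoded by Aplnr. Apln was at 8.55, 8.44 and 8.44 on the expressing arrays and at 8.04, 8.09 and 8.21 on the non-expressing arrays. The groups did not overlap, and the difference of 0.37 (SE 0.08, 95% interval 0.18 to 0.55, adjusted p 0.208) did not pass. Aplnr, the brightest probe set among the capillary genes, was at 11.78, 11.34 and 10.81 on the expressing and at 11.48, 11.50 and 11.67 on the non-expressing arrays. The expressing arrays lay on both sides of the non-expressing ones. The difference of Aplnr was -0.24 (SE 0.21, adjusted p 0.695), and it was -0.47 without expressing replicate 1 and 0.01 without expressing replicate 3.

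Apln, Vegfb and Flt1 are the 3 vascular genes with the lowest p, and the 250 bases before their start sites are shown for that reason. The sequences are RefSeq's on GRCm38.p6, and all 3 genes lie on the minus strand, at chrX:48034854-48035103 for Apln, chr19:6987652-6987901 for Vegfb and chr5:147726012-147726261 for Flt1. Capitals mark GGAA on either strand (GGAA or TTCC), the core letters that ETS factors such as ERG bind in endothelial genes. These letters occur 3 times before Apln, 1 time before Vegfb and 4 times before Flt1. They are common: 93.4% of 32851 such windows in the table hold at least 1 match, with a median of 3, so a match is a description and no binding site. The table holds 25 of the 39 vascular genes.
Apln: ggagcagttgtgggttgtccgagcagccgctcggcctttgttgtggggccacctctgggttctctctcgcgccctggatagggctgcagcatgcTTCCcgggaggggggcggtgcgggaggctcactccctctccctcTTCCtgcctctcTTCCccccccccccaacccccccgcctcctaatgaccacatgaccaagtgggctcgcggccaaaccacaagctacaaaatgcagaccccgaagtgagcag
Vegfb: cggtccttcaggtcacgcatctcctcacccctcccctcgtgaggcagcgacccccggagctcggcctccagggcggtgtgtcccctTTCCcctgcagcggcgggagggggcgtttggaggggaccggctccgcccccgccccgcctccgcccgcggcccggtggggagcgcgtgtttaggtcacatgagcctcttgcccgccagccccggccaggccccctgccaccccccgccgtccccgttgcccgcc
Flt1: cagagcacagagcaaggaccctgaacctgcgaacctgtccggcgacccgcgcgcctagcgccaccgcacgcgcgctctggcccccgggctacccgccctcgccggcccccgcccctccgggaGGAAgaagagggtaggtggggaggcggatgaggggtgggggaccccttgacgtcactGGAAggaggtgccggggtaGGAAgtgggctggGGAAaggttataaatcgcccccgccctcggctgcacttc

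**Figure D2:**
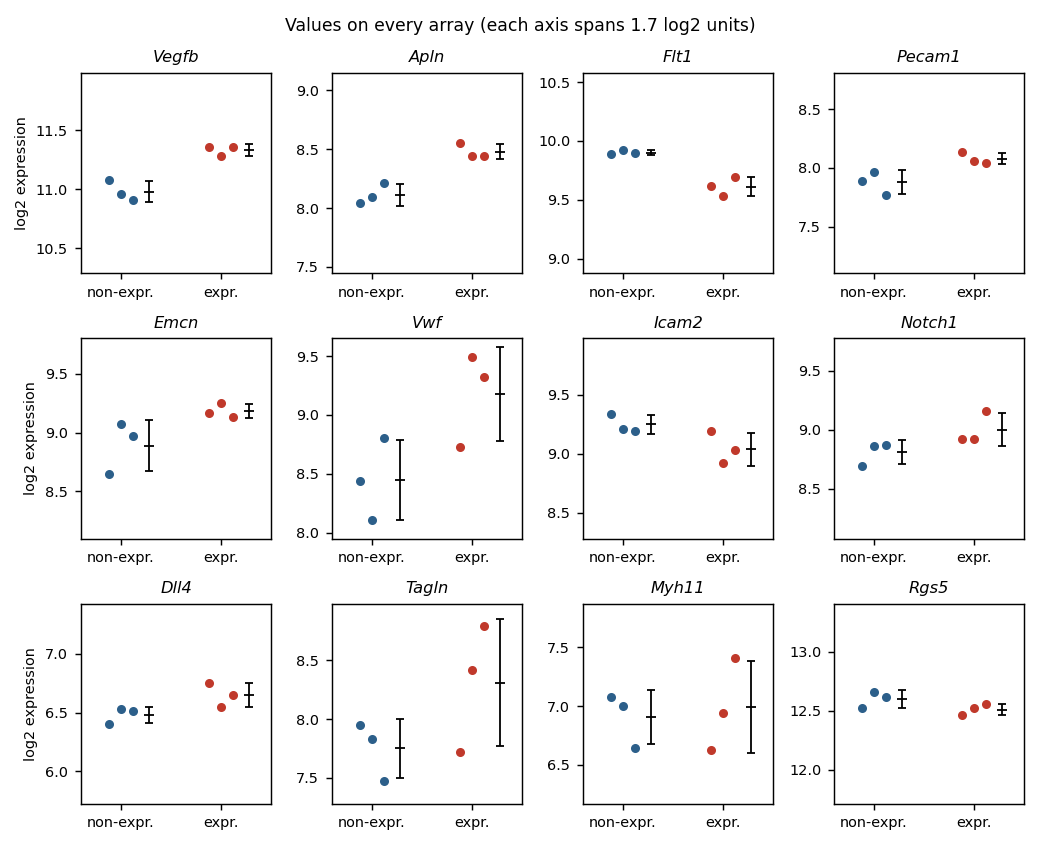
Log2 expression of 12 vascular genes on each array, with non-expressing arrays in blue and expressing arrays in red, replicates 1 to 3 from left to right, and the group mean ± SD in black (n = 3). The groups stand apart for Vegfb, Apln, Flt1, Pecam1, Emcn, Icam2, Notch1 and Dll4 and overlap for Vwf, Tagln, Myh11 and Rgs5.

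Of 12 further genes of VEGF and angiopoietin signalling, 0 passed in either direction, 6 had positive and 6 negative differences, and the groups stood apart for 2 (19.0% of all genes). The lowest p belonged to Vegfc, the growth factor of lymphatic vessels, with a difference of -0.28 (adjusted p 0.355), and to Vegfd, a related lymphatic growth factor, with one of 0.45 (adjusted p 0.388). Both ran without overlap between the groups. The angiopoietin receptor gene Tek differed by 0.01 (95% interval -0.16 to 0.18) and its partner Tie1 by -0.07 (95% interval -0.27 to 0.14).

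The genes shared by all endothelial cells were close to level. Of the 12 pan-endothelial genes 7 had positive and 5 negative differences, from -0.20 to 0.20, with a median of 0.02. Pecam1, the adhesion molecule CD31, was at 8.14, 8.06 and 8.04 on the expressing arrays and at 7.89, 7.97 and 7.77 on the non-expressing arrays. Its groups did not overlap, and the difference was 0.20 (SE 0.08, adjusted p 0.408). Icam2, another adhesion molecule of the endothelial surface, went the other way without overlap. It was at 9.19, 8.92 and 9.03 on the expressing and at 9.34, 9.21 and 9.19 on the non-expressing arrays, so the nearest values of the groups round to the same number (difference -0.20, SE 0.09, adjusted p 0.457). The differences of Pecam1 and Icam2 have opposite signs, and neither passed.

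The junction gene Cdh5, which encodes VE-cadherin, differed by 0.05 (95% interval -0.15 to 0.24), and Esam, another junction protein, by -0.06. Eng, a co-receptor for TGF-beta family ligands and the brightest probe set among the pan-endothelial genes, was at 10.43, 10.61 and 10.63 on the expressing and at 10.41, 10.48 and 10.47 on the non-expressing arrays. These groups overlapped through expressing replicate 1, and the difference was 0.11 (SE 0.08, adjusted p 0.644). The phosphatase gene Ptprb differed by 0.03, the ETS factor gene Erg by 0.06, the nitric oxide synthase gene Nos3 by -0.09 and the endothelin receptor gene Ednrb by -0.03, and none passed.

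Capillary genes were mostly negative. Of the 7, 6 had negative differences and only Apln a positive one, with a median of -0.11. The median was -0.03 without expressing replicate 2, where Cldn5 was positive (0.14), and -0.18 without expressing replicate 1. Negative differences made up a majority of all genes as well, where 44.0% were positive. Besides Flt1, Kdr and Aplnr, the negative ones were Sox18, a transcription factor gene of vessel growth (-0.21, adjusted p 0.553), Robo4, a guidance receptor gene that stabilises vessels (-0.11, adjusted p 0.715), and Cldn5, a tight junction gene (-0.01, adjusted p 0.990). Of 11 further capillary genes 0 passed, 3 had positive and 8 negative differences, with a median of -0.07. The groups stood apart for 3 (19.0% of all genes), 1 higher and 2 lower. Tcf15, which encodes a transcription factor of heart capillaries that acts with MEOX2 on fatty acid uptake, was at 8.70, 8.74 and 8.52 on the expressing and at 8.93, 9.08 and 8.93 on the non-expressing arrays. The groups did not overlap, with a difference of -0.32 (SE 0.09, adjusted p 0.301). Gpihbp1, which holds lipoprotein lipase on the capillary surface, was at 10.49, 10.21 and 10.54 on the expressing and at 10.60, 10.91 and 10.77 on the non-expressing arrays, also without overlap (difference -0.35, SE 0.12, adjusted p 0.352). Fabp4, the fatty acid binding protein of capillaries, differed by -0.07 with overlapping groups. The fatty acid transporter gene Cd36 was higher without overlap, by 0.19 (adjusted p 0.521). Both were chosen after their values were seen.

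In the genes of larger vessels, 3 of 4 differences were positive, with a median of 0.19, and none passed. Vwf, the clotting factor stored in endothelium of larger vessels and of the endocardium, had the widest gap of all 39 genes. It was at 8.73, 9.49 and 9.32 on the expressing arrays and at 8.44, 8.11 and 8.80 on the non-expressing arrays. Expressing replicate 1 lay below non-expressing replicate 3, so the groups overlapped. The difference was 0.73 (SE 0.22, 95% interval 0.23 to 1.24, adjusted p 0.333), a 1.66-fold difference with a spread within groups larger than that of 98.5% of genes. Sox17, a transcription factor gene of arteries, differed by -0.17 (SE 0.15, adjusted p 0.705), and non-expressing replicate 2 alone lay high, at 8.41 against 7.78 to 7.87 on the other arrays.

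Dll4 and Notch1, the Notch genes in the list of larger vessels, had positive differences that did not pass. Dll4, the endothelial Notch ligand, was at 6.75, 6.55 and 6.65 on the expressing and at 6.40, 6.53 and 6.51 on the non-expressing arrays, without overlap (difference 0.17, SE 0.08, adjusted p 0.469). Notch1, the endothelial receptor, was at 8.92, 8.92 and 9.16 against 8.69, 8.86 and 8.87, again without overlap (difference 0.20, SE 0.10, adjusted p 0.480). Of 11 further Notch genes 0 passed, 6 had positive and 5 negative differences, with a median of 0.04. Hes1, a target gene that Notch activates, was at 8.03, 7.87 and 7.74 on the expressing and at 7.58, 7.53 and 7.56 on the non-expressing arrays, without overlap (difference 0.33, SE 0.09, adjusted p 0.299). Nrarp, a Notch target that feeds back on the pathway, differed by 0.25 (adjusted p 0.408). The target Hey1 differed by 0.00, Heyl by -0.06 and the receptor gene Notch4 by -0.25 (adjusted p 0.445), all chosen after the values were seen.

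Among 11 further genes of arteries and veins, 0 passed, 4 were positive and 7 negative. The groups stood apart for 3 (19.0% of all genes), 2 higher and 1 lower. Selp, the adhesion molecule P-selectin of veins and platelets, was at 6.93, 7.26 and 6.79 on the expressing and at 6.61, 5.94 and 6.68 on the non-expressing arrays, without overlap (difference 0.58, SE 0.20, adjusted p 0.352). Bmx, a kinase gene of arterial endothelium and endocardium, differed by 0.47 with overlapping groups (adjusted p 0.405). It was dim, at 4.60 to 5.73, below the median of all probe sets (5.77). Ephb4, with nearly the same p, was negative without overlap (difference -0.21, adjusted p 0.405). It was chosen after its values were seen. Of 10 genes of vessel tone and shear response 0 passed, 5 in each direction. The lowest p were those of Thbd, the anticoagulant receptor thrombomodulin (difference -0.28, adjusted p 0.365), and Ece1, the enzyme that makes endothelin (difference 0.18, adjusted p 0.437).

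The 3 endocardial genes had positive differences of unequal size, and none passed. Emcn, a sialomucin of veins, capillaries and endocardium, was at 9.17, 9.25 and 9.13 on the expressing and at 8.65, 9.07 and 8.97 on the non-expressing arrays. The groups did not overlap and the difference was 0.29 (SE 0.11, 95% interval 0.03 to 0.55, adjusted p 0.403). Non-expressing replicate 1 was the lowest array, and without it the difference was 0.17. Npr3, the clearance receptor for natriuretic peptides and a marker of endocardium, differed by 0.03 (95% interval -0.35 to 0.41). Plvap, which builds the diaphragms of endothelial pores, differed by 0.01 (95% interval -0.47 to 0.50) and was -0.20 without non-expressing replicate 1 and 0.27 without replicate 3. Of 5 further endocardial genes 0 passed, with Cytl1, a small secreted protein gene, at 0.38 (adjusted p 0.632) and Hapln1, a matrix link protein gene, at -0.11 (adjusted p 0.656). Hapln1 was dim, with means of 3.39 on the expressing and 3.49 on the non-expressing arrays. Of 5 lymphatic genes 0 passed, with Mmrn1, which encodes a protein of lymphatic endothelium and platelets, at 0.27 (adjusted p 0.340) and Reln at 0.21 (adjusted p 0.550).

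**Figure D3:**
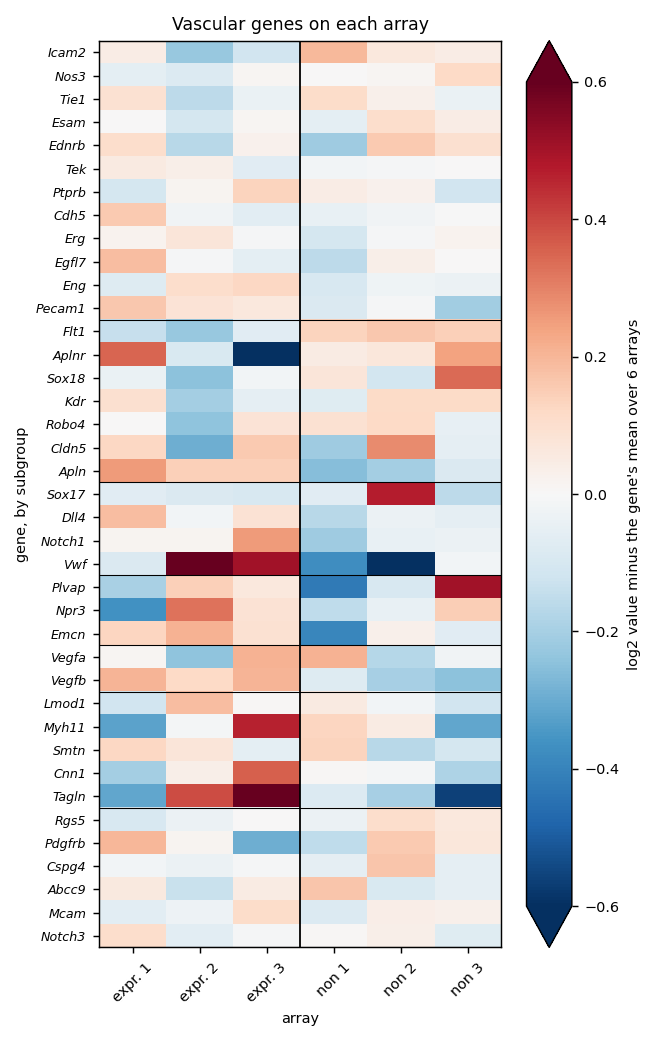
Each of the 39 vascular genes (rows, by subgroup) on each of the 6 arrays (columns), as its log2 value minus the gene's mean over the 6 arrays, with colours saturating at 0.6 on either side. Tagln, Cnn1 and Myh11 share a high value on expressing replicate 3, and Sox17 has a single high array, non-expressing replicate 2.

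All 5 smooth muscle genes had positive differences, as had 44.0% of all genes. The 5 differences ran from 0.05 to 0.56 with a median of 0.09, and none of these genes passed or stood apart between the groups. Leaving out expressing replicate 1 gave a median of 0.26, and leaving out expressing replicate 3 gave 0.06, where Cnn1 (-0.02) and Myh11 (-0.12) were negative. Smtn, a smooth muscle cytoskeletal protein gene and the brightest probe set of this subgroup, was at 9.12, 9.07 and 8.94 on the expressing and at 9.13, 8.83 and 8.89 on the non-expressing arrays (difference 0.09, SE 0.10, adjusted p 0.771). Tagln, which encodes the actin-binding protein transgelin (SM22), and Myh11, the smooth muscle myosin heavy chain gene, were chosen after their values were seen. Tagln was at 7.72, 8.42 and 8.79 on the expressing and at 7.95, 7.83 and 7.47 on the non-expressing arrays. Expressing replicate 1 lay below 2 of the non-expressing arrays, and the difference was 0.56 (SE 0.25, adjusted p 0.439). It was 0.32 without expressing replicate 3 and 0.86 without expressing replicate 1. Myh11 was at 6.63, 6.94 and 7.41 on the expressing and at 7.08, 7.00 and 6.64 on the non-expressing arrays, with a difference of 0.08 (adjusted p 0.899).

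The arrays with the highest values differed among the contractile genes. Tagln, Cnn1 (calponin) and Myh11 each had their highest value on expressing replicate 3, while Smtn was highest on non-expressing replicate 1 (9.13) and Lmod1 on expressing replicate 2 (6.31). Cnn1 was the only one of the 39 genes with a mean below the median of all probe sets (5.77), and it differed by 0.13 (adjusted p 0.753). Lmod1, an actin nucleator gene of smooth muscle, differed by 0.05. Acta2, smooth muscle actin, was chosen after its values were seen. It was at 10.24, 10.58 and 10.73 on the expressing and at 10.56, 10.05 and 9.51 on the non-expressing arrays, so its highest and lowest arrays were those of Tagln (difference 0.48, adjusted p 0.486). The further contractile genes Mylk (9.15), a myosin light chain kinase gene, and Tpm2 (9.79), a tropomyosin gene, were highest on non-expressing replicate 2; they too were chosen after their values were seen. Mylk was nearly as high, at 9.14, on expressing replicate 3.

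The pericyte genes were nearly level on their chosen probe sets. Of the 6, 2 had positive and 4 negative differences, all between -0.08 and 0.02, and none stood apart. Their other probe sets, given below, differed by -0.22 to 0.09. Rgs5, a regulator of G-protein signalling that is abundant in pericytes and has the brightest probe set here, was at 12.46, 12.52 and 12.56 on the expressing and at 12.52, 12.66 and 12.62 on the non-expressing arrays. The groups met at 12.52 to 12.56, and the difference was -0.08 (SE 0.08, adjusted p 0.709). Abcc9, a subunit of the potassium channel of pericytes and muscle that responds to ATP, differed by -0.02 (95% interval -0.24 to 0.20). The growth factor receptor gene Pdgfrb differed by -0.05, the proteoglycan gene Cspg4 (NG2) by -0.04, Notch3 by 0.02 and the adhesion molecule gene Mcam by 0.01.

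Of 15 further mural genes 0 passed, 7 positive and 8 negative. The groups stood apart for 4 (19.0% of all genes), 2 higher and 2 lower. The lowest p were those of 2 genes known from pericytes, both negative without overlap. Higd1b, a small membrane protein gene, was at 7.83, 7.90 and 8.37 on the expressing and at 8.86, 8.41 and 8.39 on the non-expressing arrays (difference -0.52, SE 0.17, adjusted p 0.352). Kcnj8, the pore subunit of the channel that holds ABCC9, was at 8.98, 8.91 and 8.94 against 9.13, 9.12 and 9.18 (difference -0.20, SE 0.07, adjusted p 0.368). The next gene by p, Myocd, went the other way, also without overlap (difference 0.33, SE 0.12, adjusted p 0.370). It was chosen after its values were seen.

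A second reading of a gene came from its other probe sets. The 39 genes have 29 other probe sets, of which 0 passed over 45037 probe sets (0.0133% of all passed), 7 stood apart between the groups (18.6% of all) and 23 had the sign of the chosen one. Egfl7, which encodes a secreted protein of endothelium, differed by 0.07 on the chosen probe set and by 0.25, 0.22 and 0.36 on the other 3. The probe set with the largest of these was at 8.40, 8.14 and 8.08 on the expressing and at 7.83, 7.90 and 7.79 on the non-expressing arrays (SE 0.10, adjusted p 0.243). Rgs5 differed by -0.22, -0.21 and -0.18 on its other probe sets, of which 2 stood apart. Cspg4 differed by -0.09 on its other probe set, without overlap. Abcc9 differed by -0.22 and 0.09, Notch3 by -0.07 and Pdgfrb by 0.04 on theirs, all with overlap. Flt1 was negative on each of its 4 probe sets, with differences of -0.16, -0.21 and -0.15 on the other 3. Sox17 differed by -0.26 on its other probe set, where the groups stood apart (SE 0.09, adjusted p 0.319). Notch1 differed by 0.01 and Dll4 by 0.08 on their other probe sets. Vegfb, Apln, Pecam1, Emcn, Vwf and Tagln have no other probe set, so their differences could not be checked in this way.

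**Figure D4:**
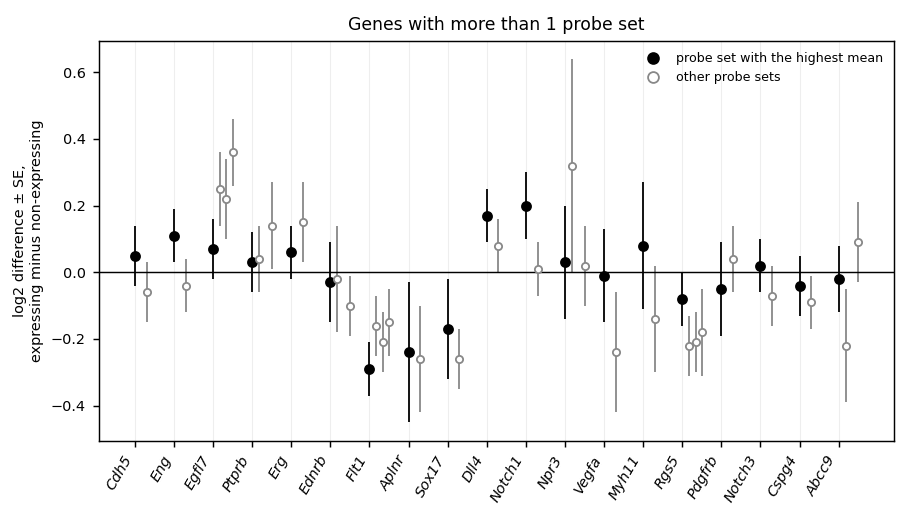
Log2 difference ± SE, PR-M expressing minus PR-M non-expressing, for every probe set of the vascular genes that have more than 1, with the chosen probe set in black and the others as open points. Flt1 is negative on all 4 probe sets, and the 3 other probe sets of Egfl7 lie above its chosen one.

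The genes differed in how much they varied within a group. The median SD within groups was 0.12 for the vascular genes and 0.11 for all genes. Tek (SD 0.04), Flt1 (0.06), Rgs5 (0.06), Nos3 (0.06) and Erg (0.06) varied little. Tagln (0.42), Vwf (0.37), Plvap (0.36), Aplnr (0.35) and Myh11 (0.32) varied most, with Myh11 above 97.7% and Tagln above 98.9% of all genes. Except for Aplnr, these are genes of larger vessels, the endocardium or smooth muscle. Other genes of those subgroups varied less, such as Dll4 (0.08), Notch1 (0.12), Lmod1 (0.12) and Smtn (0.13). The mean of the 12 pan-endothelial genes stayed between 8.93 and 9.02 on all 6 arrays and that of the 6 pericyte genes between 9.89 and 10.01.

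Markers of other cells and measures of the RNA are set beside these values. Of 7 atrial markers 3 passed as higher (0.0330% of all genes), Myl7 (difference 3.45, adjusted p 0.0348), Sln (3.89, adjusted p 0.0451) and Myl4 (3.60, adjusted p 0.0451). With limma's random block for the title prefix their adjusted p ran from 0.0882 to 0.0987, and no call of the 3 was left without expressing replicate 3 (adjusted p 0.107 to 0.121) or without non-expressing replicate 1 (0.0549 to 0.0743), 2 (0.177 to 0.191) or 3 (0.108 to 0.147). Without expressing replicate 1 Myl4 was lost (0.0751). The differences stayed between 2.97 and 4.28 whichever array was left out. The 3 calls were also lost with limma's trend and robust prior (adjusted p 0.0897 to 0.136), with a prior from the gene rows alone (0.0636 to 0.0693) and when a gene's probe sets were averaged (0.0873 each), where Myl4 differed by 1.81 and Sln by 2.01. Without _x_at and _s_at probe sets Myl4 and Sln were lost (0.0506 each). The rest of the atrial list did not pass: Nppa differed by 1.02 with overlapping groups (adjusted p 0.603), Fgf12 by 0.16, Kcna5 by -0.10 and Bmp10 by -0.03. The mean of the atrial list was 7.89, 9.12 and 8.28 on the expressing and 6.90, 6.66 and 6.59 on the non-expressing arrays, and its summed level (log2 of the sum of linear values) ran from 11.47 to 13.21 and from 10.07 to 11.24. All 10 fibroblast markers had positive differences (44.0% of all genes) and 5 stood apart, all of them higher (8.16% of all genes). Postn was at 0.67 (adjusted p 0.255) and Col3a1 at 0.28 (adjusted p 0.339), and 0 of the 10 markers passed. Their summed level ran from 15.14 to 15.30 on the expressing and from 14.96 to 15.10 on the non-expressing arrays. The mean of 6 epicardial markers was 6.51, 7.28 and 7.21 on the expressing and 6.73, 6.63 and 7.10 on the non-expressing arrays. Expressing replicate 1 was thus the lowest expressing array and non-expressing replicate 3 the highest non-expressing one. The same order held for Vwf and for the means of the endocardial, lymphatic and platelet lists. It was seen after the values and was not tested. The epicardial markers with the lowest p were Lrrn4 (0.44, adjusted p 0.579) and Upk3b (0.37, adjusted p 0.705). The mean of 10 ventricular muscle markers lay between 14.05 and 14.19 on all arrays, with the lowest p for Ryr2 (0.35, adjusted p 0.569) and Tnnt2 (0.08, adjusted p 0.717). The mean of 5 platelet markers, a cell that also holds Vwf and Selp, was 7.25 ± 0.10 where PR-M was expressed and 7.18 ± 0.30 where it was not (SD, 3 arrays each), and 0 of the 5 passed, with the lowest p for Gp9 (-0.14, adjusted p 0.724) and Ppbp (0.41, adjusted p 0.753). Of 8 macrophage markers 7 were positive, with Mrc1 at 0.36 (adjusted p 0.352) and Adgre1 at -0.16 (adjusted p 0.609). Of 6 lymphocyte markers 5 were negative, with Cd3g at -0.31 (adjusted p 0.340) and Cd4 at -0.15 (adjusted p 0.551). The 3 adipocyte markers differed by 0.80 (Adipoq, adjusted p 0.459), 0.18 (Lep) and 0.05 (Cidec). Lep (expressing mean 3.79, non-expressing 3.61) and Cidec (3.98 and 3.93) were dim. The 3 Schwann cell markers differed by 0.88 (Mbp, adjusted p 0.117), 0.05 (Sox10) and 0.00 (S100b). The 3 red cell markers differed by -0.48 (Alas2, adjusted p 0.561), 0.09 (Slc4a1) and 0.01 (Hba-a1). Slc4a1 (expressing mean 5.52, non-expressing 5.43) and Hba-a1 (4.40 and 4.39) were dim, below the median of all probe sets (5.77). Besides Myl7, Sln and Myl4, no gene of these marker lists passed. Control probe sets of 18S ribosomal RNA were at 8.31 ± 0.22 on the expressing and 9.88 ± 0.38 on the non-expressing arrays (SD, 3 arrays each), and the groups did not overlap. A two-sided exact permutation test gave p = 0.1, which is the lowest value possible with 3 arrays in each group. For beta-actin the 3′ signal exceeded the 5′ signal by 1.23 ± 0.05 and 1.38 ± 0.07, again with no overlap and p = 0.1 in the exact test. The other 3′ against 5′ measures did not run the same way: Gapdh overlapped, at 0.17 ± 0.06 and 0.25 ± 0.07 (exact permutation p = 0.300), and for 18S the excess was higher on the expressing arrays, at 1.65 ± 0.30 against 0.85 ± 0.17 without overlap (exact permutation p = 0.1). The part of these differences in the values of the vascular genes was not tested.

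**Figure D5:**
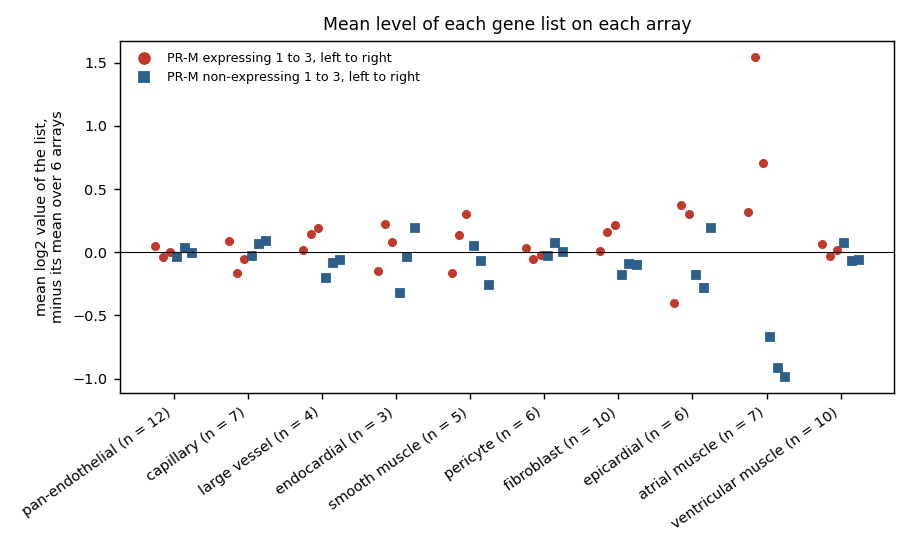
Mean log2 value of each gene list on each array, minus the list's mean over the 6 arrays, with expressing arrays as red circles and non-expressing arrays as blue squares, replicates 1 to 3 from left to right. The pan-endothelial and pericyte lists stay within 0.1 of their means. The mean of the atrial list differs by 1.71 between the groups, with large differences in Sln, Myl4 and Myl7 and differences from -0.10 to 1.02 in its other genes.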

How the data were processed

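Per the labels' protocols, 500 ng of total RNA a sample went through MessageAmp Premier amplification and onto Affymetrix mouse arrays. The authors deposited log2 values, 1 for each of 45101 probe sets on 6 arrays. The submitters' processing notes name RMA and Partek 6.6; their settings are not stated there. No source gives the scale, and log2 was taken from the range of 2.09 to 14.77. Such values are scaled between arrays, so a difference is relative to the other genes.

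The 64 control probe sets were left out of the tests. Symbols came from the platform annotation, which gives 1 symbol to 34945 probe sets; those with several or none were not named. limma 3.58.1 in R 4.3.3 (lmFit, eBayes) was fitted to all 45037 probe sets, with 4.48 prior and 4 residual degrees of freedom. One probe set, that of highest mean, stood for each of 18193 genes, and p-values were adjusted over these genes (Benjamini-Hochberg, threshold 0.05, two-sided). SE and 95% intervals are the moderated ones. Single RNA measures had exact permutation tests over the arrays. The fit was tested on simulated data. The precision is limited by the number of arrays.

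Replicates are numbered in the order of their records and pair nothing. The members and gene lists were chosen with earlier results of these data known, so no test of a list was made. Values on every array are given for members with an unadjusted p under 0.05 or no overlap, at most 4 in a subgroup, and for the brightest of each subgroup. Of the other lists the genes past the threshold are named, or otherwise the 2 with the lowest p. The rest of the atrial list is given beside its genes that passed. Of the listed markers, 10 had no probe set with their symbol alone and were not used here. Alternatives were the title prefix as a random block (consensus correlation 0.117, statmod 1.5.0), an intensity trend with a robust prior, a filter on dim probe sets, 3 scalings, the mean of all probe sets, leaving out _x_at and _s_at probe sets, array weights and leaving out each array. A prior from the gene rows alone was added after seeing the data.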

Additional observations from a re-analysis of the deposited data

How the results depend on the processing

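The count of vascular genes passing was 0 in each of the 16 alternatives. The lowest adjusted p of a vascular gene was 0.0851, for Vegfb with an intensity trend and robust prior, and a random block for the title prefix gave 0.394. Each prefix holds 1 group only, so no value within a prefix could be had. At an unadjusted p under 0.05 there were 4 to 9 vascular genes. Over all genes 12 passed, against 4 with that block or with a prior from the gene rows alone, 23 with the trend and robust prior, 1 with the mean of all probe sets, 3 without _x_at and _s_at probe sets and 26 with array weights, and 0 (without non-expressing replicate 2) to 18 (without non-expressing replicate 1) with 1 array left out; the cause was not tested. The 18S difference of -1.57 lay between -1.72 and -1.35 with 1 array left out. No paired analysis was possible because the labels give no replicate numbers that groups share.

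Cnn1 has no value under the filter on dim probe sets. The sign held in all 16 alternatives for 21 of 39 genes, among them Vegfb, Apln, Flt1, Vwf, Pecam1, Emcn, Icam2, Dll4, Notch1 and Tagln. For the other 18 the difference was within 0.24 of zero and none was called. With the mean of all probe sets the value was -0.01 for Cdh5, -0.03 for Myh11 and -0.02 for Notch3. Without _x_at and _s_at probe sets it was -0.07 for Notch3. With array weights it was -0.11 for Plvap, 0.01 for Vegfa, 0.01 for Abcc9 and -0.02 for Mcam. With 1 array left out the ranges were -0.02 to 0.09 for Cdh5, -0.01 to 0.05 for Tek, -0.03 to 0.06 for Notch3, -0.14 to 0.05 for Ednrb, -0.11 to 0.14 for Cldn5, -0.13 to 0.22 for Npr3, -0.20 to 0.27 for Plvap, -0.12 to 0.10 for Vegfa, -0.03 to 0.12 for Lmod1, -0.07 to 0.06 for Abcc9, -0.03 to 0.09 for Ptprb, -0.47 to 0.01 for Aplnr, -0.02 to 0.26 for Cnn1, -0.12 to 0.27 for Myh11, -0.16 to 0.08 for Pdgfrb, -0.04 to 0.04 for Mcam, -0.29 to 0.03 for Sox17 and -0.08 to 0.04 for Cspg4. With 1 array left out the median ran from -0.18 to -0.03 for the capillary, 0.06 to 0.26 for the smooth muscle, -0.06 to 0.27 for the endocardial and -0.02 to 0.05 for the pan-endothelial genes. The pericyte median was 0.02 without non-expressing replicate 2 and the endocardial median 0.27 without non-expressing replicate 3.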
